A study of Mus musculus with 12 samples.

Results

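C2C12 cells transfected with antimiR-206 and cultured for 48 h were compared with C2C12 cells held for 48 h in differentiation medium, called Day2. C2C12 is a mouse myoblast line, a culture of proliferating muscle precursors that leave the cell cycle and fuse into multinucleated myotubes when serum is lowered. The members are the 6 arrays that the sample titles name as antimiR-206 or Day2, with 3 replicates of each, out of 12 arrays in the series, and every measured gene was considered. The other 6 arrays were Day1 cells (24 h in differentiation medium) and cells given a small RNA that mimics miR-206 (24 h), and they shared the normalization, the detection filter, the choice of probe and the estimate of the spread. RNA was extracted with Trizol and measured on Illumina bead arrays. AntimiR-206 is an oligonucleotide inhibitor of the microRNA miR-206.

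Both groups carry the label for the beginning of differentiation. A Lipofectamine 2000 transfection protocol stands on every sample, so the labels do not show whether Day2 cells received a control oligonucleotide. The medium of the antimiR-206 cells is not given on their own label, and growth and differentiation media are both listed for the series. A difference between the groups therefore cannot be told apart from a difference in transfection or in medium, nor from an exchange of samples. The replicates are numbered but not described as separate cultures. A p-value here sets a group difference against the spread within all 4 groups of the series, and that spread may be technical.

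MicroRNAs are short RNAs that pair with messenger RNAs through their first bases, the seed, and lower the stability or translation of those messengers. miR-206 is made in skeletal muscle, rises when myoblasts differentiate and shares its seed with miR-1, and it is known to favour differentiation. Differentiation itself runs through the transcription factors MyoD and myogenin, which act with MEF2 proteins to switch on the genes of the contractile apparatus while the cell cycle is shut down.

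The mature miR-206 that the inhibitor is named for is shown to place its seed, because targets are defined by pairing with it. The sequence is from RefSeq (GRCm38.p6, chr1:20679055-20679076, plus strand), and capitals mark the seed, bases 2 to 8.
mmu-miR-206-3p: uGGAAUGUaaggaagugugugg
A message pairs with that seed through the letters ACATTCC, written as DNA. No array probe is named for the miR-206 gene or for its neighbour Mir133b, so the loss of miR-206 itself was not checked on these arrays.

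The antimiR-206 arrays did not resemble the arrays of their own culture time. Across genes they correlated with Day2 arrays at a mean r of 0.896 to 0.914, with Day1 arrays at 0.965 to 0.98 and with mimic arrays at 0.986 to 0.989, as a description of arrays that share a platform and normalization. On the first principal component, which held 75.2% of the variance, antimiR-206 arrays lay between −24.5 and −10.5 and Day2 arrays between 74.0 and 80.3. AntimiR-206 replicate 1 stood apart from the other two. Its highest r was 0.995, with a mimic array, against at most 0.992 with its own group, and on the second component it lay at 28.2, beside mimic replicates 2 and 3 at 25.4 and 26.2, while antimiR-206 replicates 2 and 3 lay at 14.9 and 15.8. Without it 5149 genes were called against Day2. Day1 and mimic levels are given in places as a description, and the labels do not allow the distance from Day2 to be assigned to the inhibitor alone.

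Of 10653 genes tested, 5466 (51.3%) passed an adjusted p of 0.05 in limma, 2818 (26.5%) higher and 2648 (24.9%) lower in antimiR-206 cells. At least 2-fold changes among them numbered 821 (7.71%) higher and 951 (8.93%) lower, and the 3 antimiR-206 values lay wholly above or below the 3 Day2 values in 6582 genes (61.8%). The median change over all genes was 0.03 on the log2 scale. A list of genes therefore has to be read against a background in which just over 1 gene in 2 was called. Replacing quantile normalization with scaling of every array to the same median moved the median of all genes to 0.28 and the share of calls that were higher to 69.6%, against 51.6% in the main analysis, and small changes depend on that choice. Values below are log2 normalised intensity unless stated otherwise, changes are antimiR-206 minus Day2 with the limma standard error (SE), and p-values are limma p-values with Benjamini-Hochberg adjustment over all genes.

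**Figure D1:**
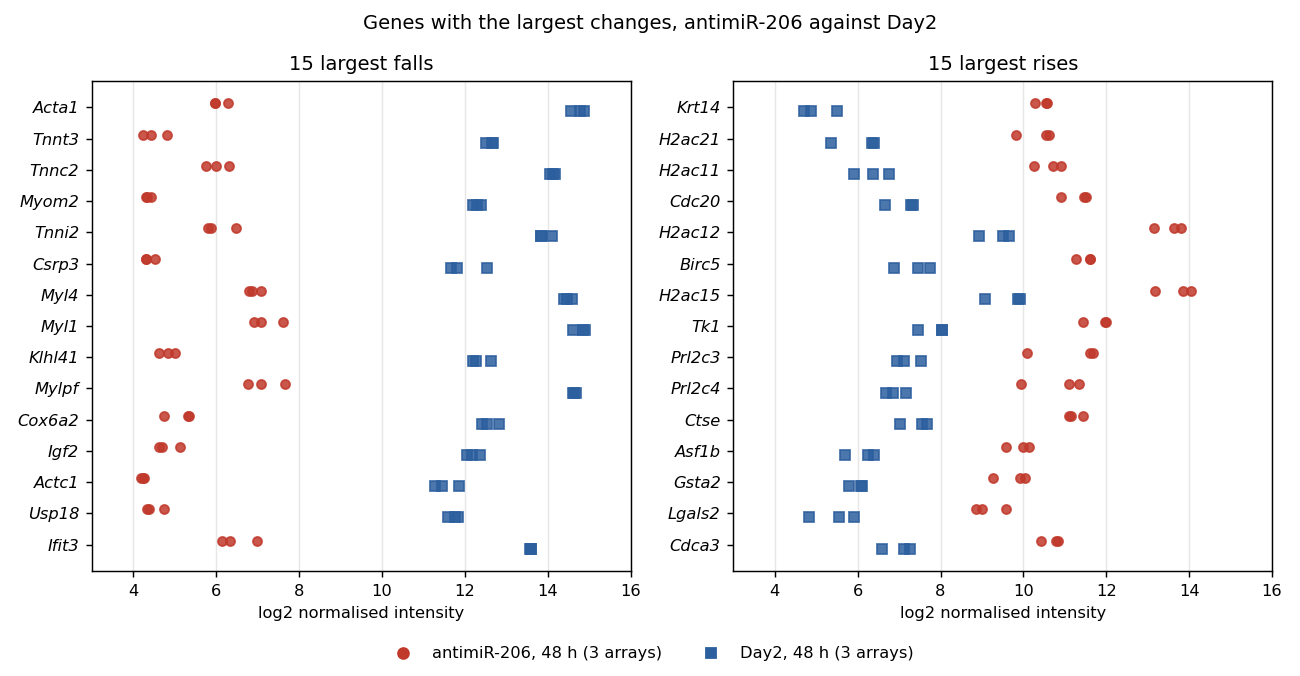
Log2 normalised intensity on the x axis for the 15 genes that fell most (left) and the 15 that rose most (right), with 3 antimiR-206 arrays as circles above 3 Day2 arrays as squares for each gene. The groups do not overlap in any of the 30 genes, and Acta1 shows the widest gap, with antimiR-206 arrays near 6.08 and Day2 arrays near 14.74.

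Genes that earlier work names as miR-206 or miR-1 targets were higher more often than lower. Of 43 listed targets 31 were tested, 5 had no named probe and 7 were not detected on enough arrays. Of the 31, 18 were called higher (58.1%), 4 lower (12.9%) and 9 did not pass the test, with a median of 0.62 beside 0.03 for all genes. With median scaling 15 were higher and 2 lower.

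Tagln2, an actin-bundling protein of the transgelin family, had the largest rise among the targets. It measured 12.80, 13.03 and 12.93 in antimiR-206 cells, against 10.74, 10.79 and 10.90 in Day2 cells, a change of 2.11 (SE 0.13, adjusted p = 1.19e-08). Fstl1, a secreted follistatin-like protein, measured 10.79, 10.41 and 10.76 in antimiR-206 cells, against 9.09, 9.0 and 8.68 in Day2 cells, a change of 1.73 (SE 0.26, adjusted p = 9.51e-05). The groups were apart in both genes. Tagln2 averaged 12.88 in Day1 cells and 12.91 in mimic cells, and Fstl1 averaged 9.84 and 10.55. Cells given the mimic thus had levels near those of antimiR-206 cells in both genes.

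Calm2, a calmodulin gene, was 2.57-fold higher by its brightest probe, while another of its probes was at 0.03, and Twf1, which binds actin monomers, was 2.45-fold higher. The change of Twf1 was 1.29 here and 0.43 to 1.43 in the alternative analyses. Timp3, an inhibitor of matrix metalloproteinases, measured 10.54, 10.43 and 10.43 in antimiR-206 cells, against 9.49, 9.33 and 9.27 in Day2 cells, a change of 1.10 (SE 0.10, adjusted p = 5.84e-07). Ets1, a transcription factor, rose by 1.05 and Sox9, a transcription factor that opposes muscle differentiation, by 0.94. The actin regulators Lasp1 and Coro1c rose by 0.80 and 0.62. Smarcd1 and Met were not above background on any Day2 array. They were at least 1.58-fold and at least 1.44-fold higher in antimiR-206 cells (adjusted p = 0.00309 and 0.00461), though 2 further Smarcd1 probes did not pass, at 0.42 and 0.15. Each such bound divides the bright group's mean by that of the dim group after any dim value was lifted to its array's lowest signal above background.

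The smaller rises among the targets were Mmd at 0.68, the pentose phosphate enzyme Tkt at 0.63, the chaperonin Hspd1 at 0.62, the small GTPase Cdc42 at 0.47 and the mitochondrial glycerol phosphate dehydrogenase Gpd2 at 0.44. With median scaling Tkt, Cdc42 and Gpd2 no longer passed the threshold. Gpd2 also lost its call without antimiR-206 replicate 2, Day2 replicate 2 or Day2 replicate 3. Hspd1 lost it without antimiR-206 replicate 2, antimiR-206 replicate 3 or Day2 replicate 1.

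The targets called lower were Igf1, Vegfa, Ccnd2 and, by the brighter of its probes alone, Hdac4. Igf1, a growth factor that promotes muscle differentiation, measured 6.08, 4.93 and 5.24 in antimiR-206 cells, against 7.26, 7.10 and 6.90 in Day2 cells, a change of −1.67 (SE 0.34, adjusted p = 0.00104). Vegfa, the endothelial growth factor, measured 9.16, 8.86 and 9.13 in antimiR-206 cells, against 10.41, 10.86 and 10.88 in Day2 cells, a change of −1.67 (SE 0.20, adjusted p = 8.57e-06). The groups were apart in both. With the authors' processed values the change of Igf1 was −0.79 and still passed.

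Ccnd2, a D-type cyclin, measured 7.65, 7.76 and 7.70 in antimiR-206 cells, against 8.45, 8.38 and 8.17 in Day2 cells, a change of −0.63 (SE 0.24, adjusted p = 0.0433). That call was lost in 10 of 17 alternative analyses, among them each of the 6 that left out an antimiR-206 or Day2 array. Hdac4, a histone deacetylase that represses MEF2 and a much-studied target of miR-1 and miR-206, measured 7.69, 7.31 and 7.55 in antimiR-206 cells, against 8.06, 7.90 and 7.99 in Day2 cells. Its change was −0.47 (SE 0.16, adjusted p = 0.026). A second probe for Hdac4 moved the other way, by 0.37 (adjusted p = 0.0441), so the probes disagree and no direction is given for the gene.

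The 9 targets that did not pass included Gja1, the gap junction protein connexin 43, which is a known target in muscle. It measured 11.55, 11.60 and 11.57 in antimiR-206 cells, against 11.62, 11.55 and 11.64 in Day2 cells, a change of −0.03 (SE 0.09, adjusted p = 0.815). Utrn, the dystrophin relative utrophin, changed by −0.12 (adjusted p = 0.513) from a probe near background. Notch3 measured 9.28 ± 0.34 in antimiR-206 cells and 8.89 ± 0.06 in Day2 cells (SD, n = 3 each, limma adjusted p = 0.394). Bdnf, Ncoa3, Gata4, Klf4, Irx5 and Slc8a1 lay between −0.30 and 0.27.

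**Figure D2:**
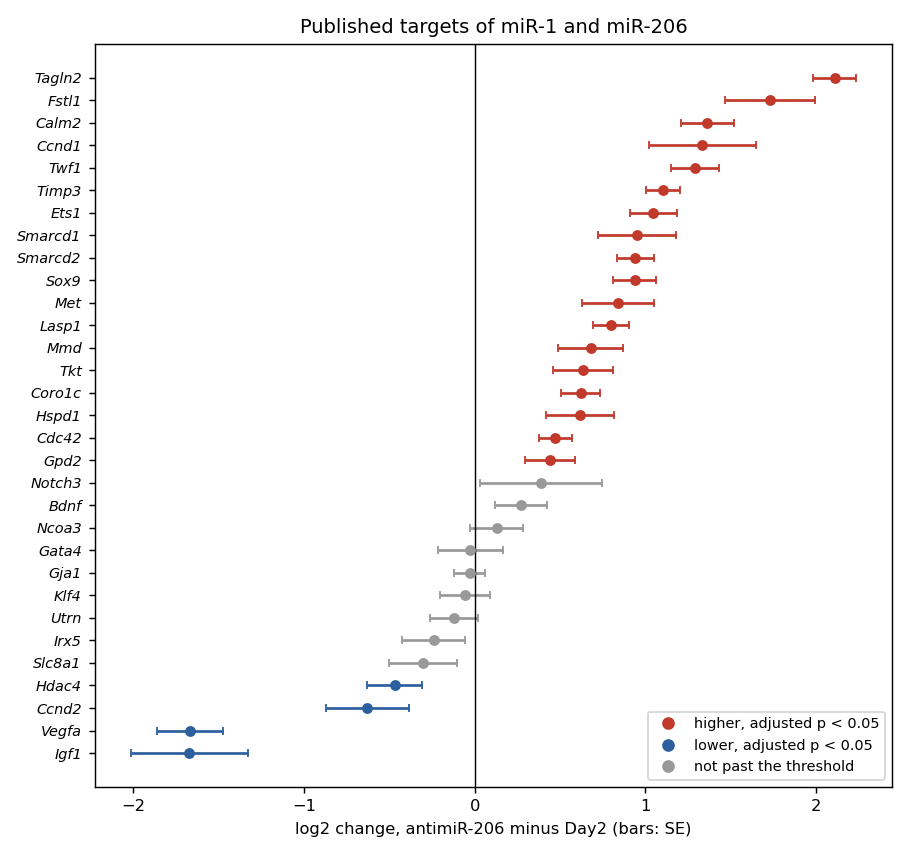
Change in log2 intensity, antimiR-206 minus Day2, on the x axis for each of the 31 tested targets of miR-1 and miR-206, with bars of 1 SE. The 18 red genes passed the test as higher, from Gpd2 at 0.44 to Tagln2 at 2.11, and the 4 blue genes as lower, Hdac4 by the brighter of its probes alone.

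Regulators of muscle differentiation, a list of transcription factors, their partners and the cell cycle inhibitors Cdkn1a and Cdkn1c, split. Of 15 tested 2 rose, 6 fell and 7 did not pass, with a median of −0.12. The share called was 53.3%, beside 51.3% over all genes. Myod1, which commits cells to the muscle lineage, measured 10.26, 9.95 and 9.99 in antimiR-206 cells, against 10.06, 9.91 and 9.98 in Day2 cells. The values overlap, and the change was 0.08 (SE 0.30, adjusted p = 0.841).

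Myog, encoding myogenin, which acts after MyoD and drives terminal differentiation, measured 4.41, 4.31 and 4.25 in antimiR-206 cells, against 11.78, 11.27 and 11.22 in Day2 cells. Its brightest probe was not above background on any antimiR-206 array, and by that probe Myog was at least 110-fold lower there (adjusted p = 2.55e-13). Another Myog probe changed less, at −3.10. By the brightest probe Myog averaged 4.24 in Day1 cells and 4.28 in mimic cells, so Day2 was the group in which it was high. The bound belongs to this background correction: the fitted change was −7.10 here and −4.88 in the authors' processed values.

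The bases before the Myog start are shown because this promoter is known for its MyoD-family E-boxes and a MEF2 site. Capitals mark the letters CANNTG, the E-box, searched on either strand in the 250 bases before the start (RefSeq, GRCm38.p6, chr1:134289754-134290003, plus strand).
Myog: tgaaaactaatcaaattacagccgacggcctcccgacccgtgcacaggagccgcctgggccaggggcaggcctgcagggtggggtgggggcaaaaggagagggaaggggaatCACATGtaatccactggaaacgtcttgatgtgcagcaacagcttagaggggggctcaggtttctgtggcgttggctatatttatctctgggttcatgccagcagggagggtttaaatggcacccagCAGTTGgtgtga
The 2 matches begin 138 and 12 bases before the start. The letters CANNTG occur in 66.2% of all 32851 promoter windows in the table. A strict MEF2-type pattern searched the same way (CTA, any 4 bases, TAG) had no match in this window. The window does hold the letters ctatatttat, which differ from that pattern in the last base only. The search therefore does not show that the known MEF2 site is absent.

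Tead4, a transcription factor that MyoD and myogenin turn on, measured 5.54, 5.83 and 5.95 in antimiR-206 cells, against 9.46, 8.95 and 8.99 in Day2 cells, a change of −3.36 (SE 0.26, adjusted p = 1.87e-07). Cdkn1a, encoding the cyclin-dependent kinase inhibitor p21 that holds differentiating myoblasts out of the cell cycle, measured 10.81, 10.69 and 10.69 in antimiR-206 cells, against 13.62, 13.60 and 13.61 in Day2 cells. It was 7.37-fold lower (adjusted p = 2.99e-10). Vgll2, Vgll3 and Cdkn1c fell by 1.33, 0.89 and 0.93. Eya1 and Six4, which work together upstream of MyoD genes, rose by 1.61 and 0.47, although another Eya1 probe did not pass, at 0.35. Eya1 was above background on 1 Day2 array, so the size of its rise rests on values near background. In the alternative analyses it was 0.57 to 1.72. Vgll3, Cdkn1c and Six4 lost their calls with median scaling, and Cdkn1c and Six4 also without some of the arrays. Without antimiR-206 replicate 2 or 3 and without Day2 replicate 2 or 3 Cdkn1c no longer passed, and Six4 did not pass without antimiR-206 replicate 3 or Day2 replicate 1.

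Inhibitors of differentiation gave 7 rises, 4 falls and 3 genes that did not pass, with a median of 0.30. The rises were 50% of the list and the falls 28.6%, beside 26.5% and 24.9% over all genes. The Id proteins, which bind the partners of MyoD and keep them from DNA, rose together. Id3 measured 9.73, 9.68 and 9.67 in antimiR-206 cells, against 6.93, 7.05 and 7.0 in Day2 cells, a change of 2.70 (SE 0.25, adjusted p = 1.08e-06). Id2 rose by 2.19 by its brightest probe and Id1 by 2.06, and neither overlapped with Day2. Other Id2 probes rose less, by 0.42 (not past the test) and 0.77. The repressors Snai2, Twist2 and Snai1 rose by 0.99, 0.81 and 0.54. Bhlhe40, a repressor of the basic helix-loop-helix class, fell by 1.99, and the repressors Zeb1 and Zeb2 fell by 0.89 and 0.67. Another Zeb2 probe was at −0.01 and did not pass. Snai1, Zeb1 and Zeb2 did not pass with median scaling, which left 6 of the list higher and 1 lower. Hes1, an effector of Notch signalling, changed by −0.34 (adjusted p = 0.0243) and by 0.07 with median scaling.

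**Figure D3:**
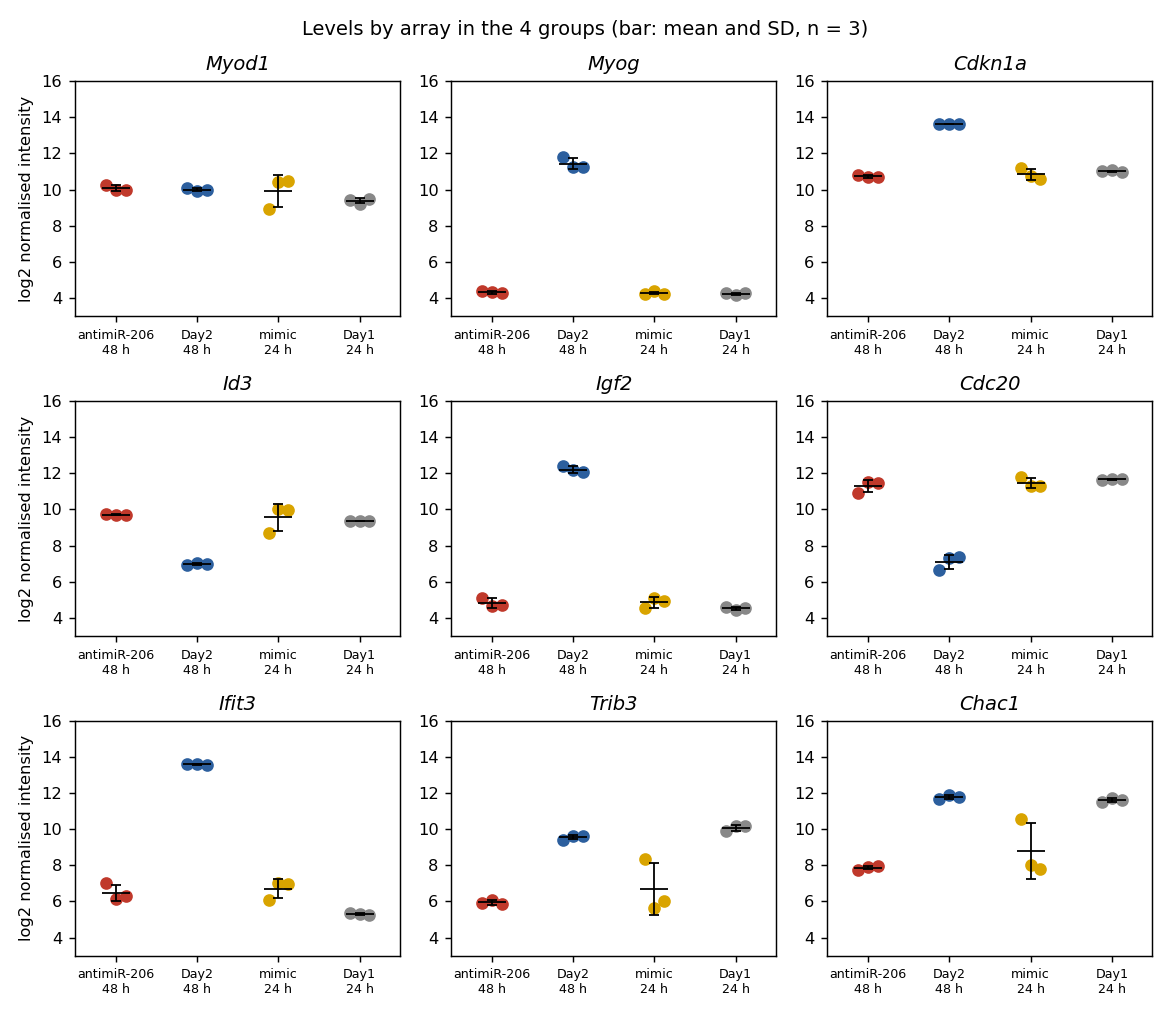
Log2 normalised intensity on the y axis for 9 genes in antimiR-206, Day2, mimic and Day1 cells, with 1 point for each array and the mean and SD over 3 arrays. Day2 stands apart from the other groups in Myog, Cdkn1a, Id3, Igf2, Cdc20 and Ifit3, while in Trib3 and Chac1 Day2 lies beside Day1 and Myod1 overlaps between antimiR-206 and Day2.

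Genes of the sarcomere, the contractile unit of muscle, were almost all lower. Of 36 tested, 33 fell (91.7%), 2 rose and 1 did not pass, with a median change of −5.56, and 10 were not above background on any antimiR-206 array. In a bulk sample, fewer cells of a type and less RNA per cell cannot be told apart. Acta1, skeletal alpha-actin of the thin filament, measured 6.28, 5.98 and 5.97 in antimiR-206 cells, against 14.87, 14.79 and 14.56 in Day2 cells, a change of −8.66 (SE 0.25, adjusted p = 7.59e-12), or 405-fold. The troponins, which make the thin filament sensitive to calcium, followed. Tnnt3, fast troponin T, measured 4.82, 4.43 and 4.24 in antimiR-206 cells, against 12.69, 12.52 and 12.66 in Day2 cells. Its probe was above background on 1 antimiR-206 array.

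Tnnc2 and Tnni2, fast troponins C and I, fell by 8.10 and 7.88. Myosin light chains Myl4, Myl1 and Mylpf fell by 7.58, 7.58 and 7.48 by their brightest probes. Another Myl4 probe was at −0.99, and other Myl1 probes were at −8.24 and −4.73. Myom2, which crosslinks myosin in the M-band, measured 4.33, 4.44 and 4.32 in antimiR-206 cells, against 12.29, 12.20 and 12.39 in Day2 cells, and was at least 201-fold lower (adjusted p = 7.33e-14). By its brightest probe Csrp3, a muscle LIM protein of the Z-disc, was at least 164-fold lower. Actc1, cardiac alpha-actin, which embryonic skeletal muscle also uses, was at least 119-fold lower by its brightest probe. Other Csrp3 probes were at −6.62 and −5.80, and another Actc1 probe was at −3.71. Acta1 and Actc1 are near-identical in coding sequence, so some signal may cross between their probes.

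Klhl41, a kelch protein that stabilises nebulin, measured 4.84, 4.63 and 5.02 in antimiR-206 cells, against 12.63, 12.28 and 12.21 in Day2 cells. Its change was −7.54 (SE 0.21, adjusted p = 5.08e-12), with the probe above background on 2 antimiR-206 arrays. Its promoter window is shown as one of the sarcomere genes with a MEF2-type match in capitals, which begins 63 bases before the start (RefSeq, GRCm38.p6, chr2:69669870-69670119, plus strand).
Klhl41: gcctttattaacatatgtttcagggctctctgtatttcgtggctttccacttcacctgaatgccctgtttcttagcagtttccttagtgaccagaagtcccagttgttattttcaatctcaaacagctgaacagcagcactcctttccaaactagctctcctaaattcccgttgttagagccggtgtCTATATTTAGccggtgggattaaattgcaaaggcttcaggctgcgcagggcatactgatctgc
That motif, CTA, any 4 bases and TAG, was found in 7 of 31 windows (22.6%) of the sarcomere genes that fell and in 3.2% of all windows. Besides Klhl41, the genes with a match were Ttn, Myoz2, Ldb3, Synpo2l, Flnc and Hspb3. A match is a description of letters, and these genes were chosen because they fell.

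The 2 sarcomere genes that rose were both tropomyosins, Tpm3 at 2.08 and Tpm1 at 1.16, which non-muscle cells also make in other isoforms, and the gene that did not pass was Tpm2 at 0.17 (adjusted p = 0.14). These 3 were singled out after their values were seen. Desmin, the intermediate filament of muscle that myoblasts already carry, fell less than the sarcomere median. Des measured 11.64, 11.33 and 11.22 in antimiR-206 cells, against 13.61, 13.49 and 13.60 in Day2 cells, a change of −2.17 (SE 0.18, adjusted p = 3.79e-07). Vim, the intermediate filament of mesenchymal cells and myoblasts, rose by 1.73 (adjusted p = 1.06e-08).

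Excitation-contraction coupling, the release and re-uptake of calcium that links the membrane to the filaments, gave 20 falls among 23 tested genes with 1 rise, 2 genes not past the test and a median of −2.40. Casq2, a calcium-storing protein of the sarcoplasmic reticulum, was at least 72.4-fold lower. Ryr1, the calcium release channel, measured 6.08, 5.16 and 5.25 in antimiR-206 cells, against 11.41, 11.35 and 11.21 in Day2 cells, a change of −5.83 (SE 0.28, adjusted p = 1.33e-09). Other Ryr1 probes lay between −5.92 and −0.80. Atp2a1, the fast-muscle calcium pump, fell by 6.31, and Hrc and Srl, 2 further proteins of the reticulum, fell by 6.36 and 6.0, although 1 other Srl probe was at −0.08. The gene that rose was Cacna2d1, an auxiliary calcium channel subunit, at 2.46, named after its value was seen.

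Muscle energy metabolism gave 15 falls, 1 rise and 3 genes that did not pass among 19, with a median of −2.37. With detection required on at least 6 arrays 7 of 10 fell, and with no detection filter 15 of 20. Cox6a2 and Cox8b, the muscle forms of cytochrome oxidase subunits, fell by 7.46 and 7.06, with Cox8b above background on 1 antimiR-206 array. Cox6a2 was not low in the Day1 cells: it measured 4.73, 5.35 and 5.32 in antimiR-206 cells, against 12.82, 12.42 and 12.54 in Day2 cells, and averaged 9.23 in Day1 cells. Ckm, muscle creatine kinase, was at least 44.0-fold lower and Mb, myoglobin, at least 42.5-fold lower by its brightest probe. Another Mb probe changed less, at −3.27. Pgam2, the muscle phosphoglycerate mutase, was at least 21.5-fold lower. Pdk4, which holds back pyruvate oxidation, was the gene that rose, by 1.5, and was named after its value was seen.

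Adhesion and fusion genes fell less uniformly, with 11 lower, 1 higher (Dock1, 0.73, named after its value was seen) and 8 not past the test. Among these 20 the median was −0.86. In all 60% were called and 55% were lower, beside 51.3% and 24.9% over all genes. Mymk, myomaker, the membrane protein that drives myoblast fusion, measured 5.08, 5.16 and 5.44 in antimiR-206 cells, against 11.35, 11.15 and 11.06 in Day2 cells, a change of −5.96 (SE 0.21, adjusted p = 4.13e-11). Tmem182, a muscle membrane protein, was at least 63.6-fold lower and Cav3, muscle caveolin, at least 8.52-fold lower. Ncam1 and Cdh15, adhesion molecules of myoblasts and myotubes, fell by 3.63 and 1.85, and Dysf, the membrane repair protein dysferlin, by 2.99.

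**Figure D4:**
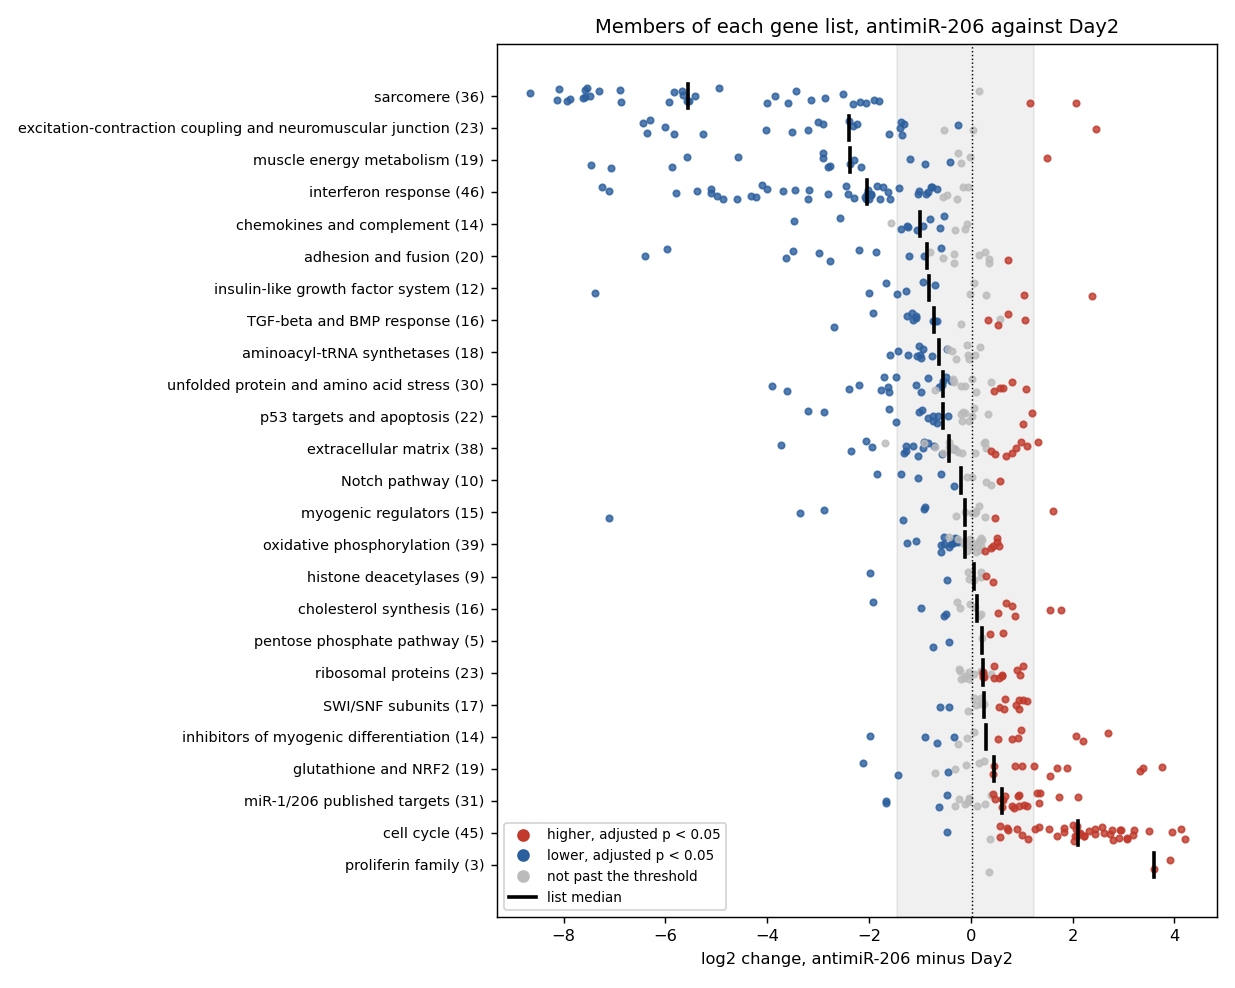
Change in log2 intensity, antimiR-206 minus Day2, on the x axis for each tested member of 25 gene lists, ordered by their medians from sarcomere at the top (−5.56) to proliferin family at the bottom (3.60). Red and blue points passed the test, grey points did not, vertical bars are list medians, the shaded band spans the 5th to 95th percentile of all genes (−1.46 to 1.25) and the dotted line is their median of 0.03.

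Cell cycle genes moved the other way. Of 45 tested, 43 rose (95.6%), 1 fell (Cdk2, −0.47) and 1 did not pass (Ccna2, 0.37, adjusted p = 0.057), with a median of 2.11, and Cdk2 and Ccna2 were named after their values were seen. Cdc20, which activates the anaphase-promoting complex, measured 10.92, 11.52 and 11.46 in antimiR-206 cells, against 6.66, 7.29 and 7.34 in Day2 cells, a change of 4.20 (SE 0.20, adjusted p = 1.08e-09). Birc5, survivin of the chromosomal passenger complex, measured 11.27, 11.60 and 11.61 in antimiR-206 cells, against 6.88, 7.74 and 7.47 in Day2 cells, a change of 4.13. Tk1, which supplies thymidine nucleotides to S phase, was 15.5-fold higher by its brightest probe, while 2 of its other probes did not pass, at 0.34 and 0.40.

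Cenpa, the centromeric histone, rose by 3.49 and Mcm5, part of the replicative helicase, by 3.20. Asf1b, a histone chaperone, rose by 3.80 and Cdca3, a trigger of mitotic entry, by 3.68. Ccnd1, cyclin D1, which is also a published target, measured 11.88, 11.81 and 11.73 in antimiR-206 cells, against 10.37, 10.46 and 10.60 in Day2 cells, a change of 1.33 (SE 0.31, adjusted p = 0.00282). Of the 15 largest rises over all genes 4 were core histone genes, H2ac21, H2ac11, H2ac12 and H2ac15, at 4.28, 4.28, 4.17 and 4.07. Their near-identical sequences mean that the signal cannot be assigned to a particular H2A gene.

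The largest rise over all genes belonged to Krt14, a keratin of basal epithelia. It measured 10.28, 10.56 and 10.56 in antimiR-206 cells, against 5.50, 4.88 and 4.70 in Day2 cells, a change of 5.44 (SE 0.17, adjusted p = 1.68e-11), or 43.4-fold. It averaged 10.45 in Day1 cells and 10.47 in mimic cells. With the authors' processed values the change was 3.69.

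Of 3 tested members of the proliferin list, prolactin-related secreted proteins, 2 rose, and Prl2c1 at 0.35 did not pass (adjusted p = 0.333). Prl2c3 measured 10.08, 11.61 and 11.67 in antimiR-206 cells, against 7.52, 7.13 and 6.95 in Day2 cells. Its change was 3.92 (SE 0.44, adjusted p = 5.5e-06), and Prl2c2 rose by 3.60. Prl2c4, which is not a member of that list, rose by 3.89. These genes are near-identical, so their probes may read a shared signal. Ctse, the protease cathepsin E, measured 11.15, 11.45 and 11.11 in antimiR-206 cells, against 7.03, 7.55 and 7.67 in Day2 cells, and was 14.1-fold higher. Lgals2, the lectin galectin-2, measured 9.57, 8.86 and 9.01 in antimiR-206 cells, against 4.82, 5.56 and 5.90 in Day2 cells. Lgals2 averaged 6.87 in Day1 cells and 8.71 in mimic cells, so Day1 lay between the groups compared.

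Genes induced by interferon, which signals through the STAT and IRF factors of the antiviral response, were lower as a group: 41 of 46 tested fell (89.1%), none rose and 5 did not pass, with a median of −2.05. No member was higher at an adjusted p of 0.05 in any of the alternative analyses. With detection required on at least 6 arrays 32 of 36 fell, and with no detection filter 41 of 51. Usp18, a protease that removes ISG15 from proteins, measured 4.74, 4.39 and 4.33 in antimiR-206 cells, against 11.60, 11.83 and 11.75 in Day2 cells. The change was −7.24 (SE 0.15, adjusted p = 2.28e-13). Usp18 was above background on 1 antimiR-206 array, so the size of its fall rests on values near background. Ifit3, an interferon-induced antiviral protein, measured 7.0, 6.15 and 6.33 in antimiR-206 cells, against 13.60, 13.61 and 13.57 in Day2 cells, a change of −7.10. Ifit3 averaged 5.31 in Day1 cells and 6.70 in mimic cells, so it was high in Day2 cells.

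Mx2, an antiviral GTPase, was at least 46.9-fold lower, and Igtp, an interferon-gamma-induced GTPase, fell by 5.37. Oasl2, of the oligoadenylate synthetase family, fell by 5.10. The class I MHC genes H2-K1 and H2-D1, which are near-identical to other class I genes, fell by 2.00 and 1.02, and B2m, their shared light chain, by 0.67. The receptors of the double-stranded RNA response were lower in part: Ddx58 fell by 1.78, while Ifih1 was at −0.47 (adjusted p = 0.065).

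The promoter windows of Ifit3 and Isg15, the ubiquitin-like antiviral protein whose change was −5.09 (adjusted p = 5.2e-09), are shown because each holds more than 1 interferon response type motif. Capitals mark GAAA, any 2 bases and GAAA, or the reverse complement (RefSeq, GRCm38.p6, chr19:34583279-34583528, plus strand, for Ifit3, and chr4:156200819-156201068, minus strand, for Isg15).
Ifit3: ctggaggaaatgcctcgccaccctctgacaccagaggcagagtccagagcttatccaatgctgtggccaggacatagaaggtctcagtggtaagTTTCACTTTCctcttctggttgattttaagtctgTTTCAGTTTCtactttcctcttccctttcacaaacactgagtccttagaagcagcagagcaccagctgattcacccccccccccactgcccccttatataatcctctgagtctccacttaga
Isg15: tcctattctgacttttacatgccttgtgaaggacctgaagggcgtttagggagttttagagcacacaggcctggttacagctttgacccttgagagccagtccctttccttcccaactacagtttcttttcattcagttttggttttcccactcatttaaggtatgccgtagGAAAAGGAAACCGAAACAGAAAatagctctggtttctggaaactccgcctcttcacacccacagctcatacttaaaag
RefSeq's window for Ifit3 stands before a transcript start 410 bases inside the annotated gene (chr19:34583119-34588982), and the matches begin 156 and 122 bases before that start. They begin 78, 72 and 66 bases before the start of Isg15, where they overlap each other. The motif was found in 12 of 35 windows (34.3%) of interferon genes that fell, against 2.98% of all windows, and these genes were chosen because they fell.

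Chemokines and complement genes gave 10 falls, no rise and 4 genes not past the test among 14, with a median of −1.0. The falls were 71.4% of the list, beside 24.9% over all genes. Cxcl10, an interferon-induced chemokine, measured 5.10, 5.11 and 5.28 in antimiR-206 cells, against 8.93, 8.64 and 8.32 in Day2 cells, a change of −3.47 (SE 0.18, adjusted p = 2.83e-09). Cfb, complement factor B, was at least 4.62-fold lower. Cxcl1, Ccl2 and Cx3cl1 fell by 1.37, 1.25 and 1.23, and these 3 no longer passed with median scaling, under which 2 members of the list did.

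Unfolded protein and amino acid stress genes gave 17 falls, 5 rises and 8 not past the test among 30, with a median of −0.56. The falls were 56.7% of the list, beside 24.9% over all genes. With median scaling 9 fell and 3 rose, with a median of −0.22. The falls were led by targets of the transcription factors ATF4 and CHOP, which act when amino acids are short or the endoplasmic reticulum is loaded. Chac1, which degrades glutathione, measured 7.76, 7.92 and 7.94 in antimiR-206 cells, against 11.69, 11.87 and 11.79 in Day2 cells, a change of −3.91 (SE 0.50, adjusted p = 1.95e-05). Trib3, a pseudokinase, measured 5.91, 6.09 and 5.85 in antimiR-206 cells, against 9.41, 9.62 and 9.63 in Day2 cells, a change of −3.60 (SE 0.48, adjusted p = 2.62e-05). Both genes were also high in Day1 cells, at 11.60 and 10.07.

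Ddit3, which encodes CHOP, fell by 2.39, Atf3 by 2.20 and Aldh1l2, a mitochondrial folate enzyme, by 1.75. The genes that rose were Sdf2l1, Calr, Edem1, Ddit4 and Creld2, at 1.09, 0.80, 0.63, 0.57 and 0.45, most of them chaperones or partners of the endoplasmic reticulum, and they were named after their values were seen. Aminoacyl-tRNA synthetases, which load amino acids onto tRNA, gave 10 falls and no rise among 18, with a median of −0.62. These falls were 55.6% of the list, beside 51.3% called and 24.9% lower over all genes. Mars1 measured 8.33, 8.62 and 8.56 in antimiR-206 cells, against 10.16, 9.99 and 10.10 in Day2 cells, a change of −1.58 (SE 0.18, adjusted p = 5.27e-06). Gars, Sars, Cars and Iars fell by 1.43, 1.24, 1.05 and 1.01. With median scaling 1 synthetase passed, and the Cars call was lost in 10 of 17 alternative analyses.

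**Figure D5:**
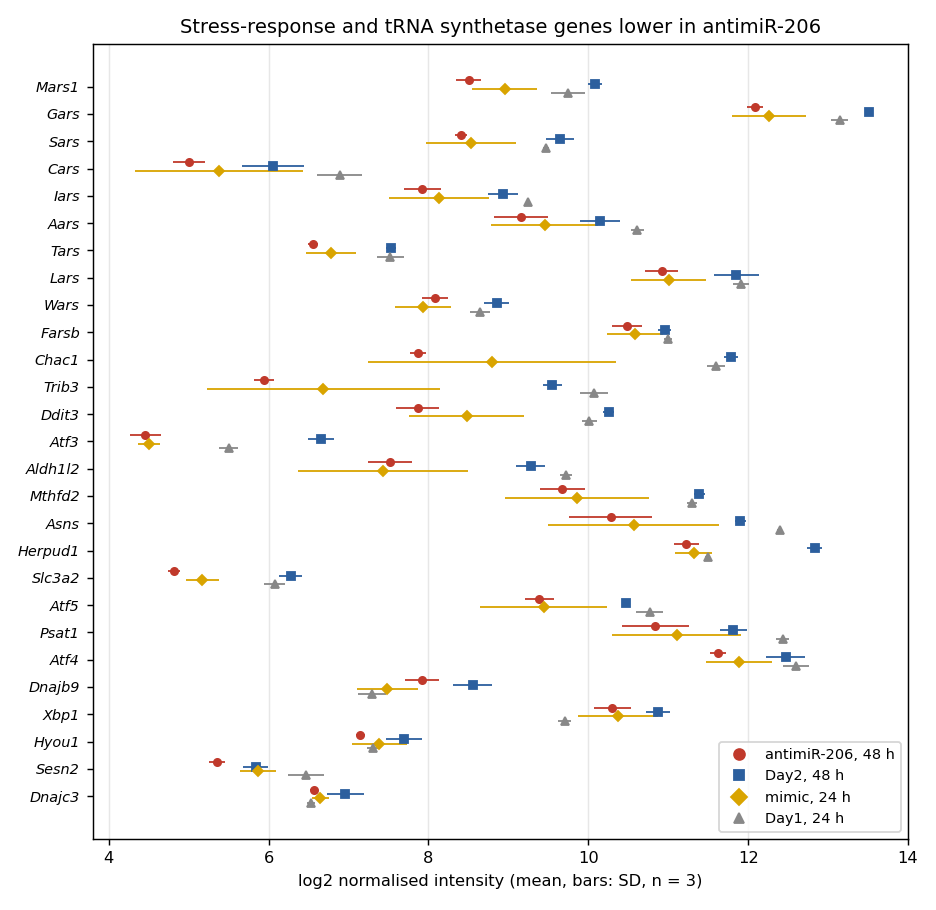
Mean log2 normalised intensity with SD bars over 3 arrays on the x axis for the aminoacyl-tRNA synthetases and stress genes that fell in antimiR-206 cells, in the 4 groups. Most antimiR-206 and mimic means lie left of the Day2 and Day1 means.

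Within the insulin-like growth factor system, which supports muscle growth, 7 of 12 genes fell, 2 rose and 3 did not pass. The falls were 58.3% of the list, beside 24.9% over all genes. Igf2, the fetal growth factor that differentiating myoblasts secrete, measured 5.12, 4.63 and 4.69 in antimiR-206 cells, against 12.38, 12.18 and 12.05 in Day2 cells. The change was −7.39 (SE 0.17, adjusted p = 7.41e-13), or 168-fold. Igf2 was above background on 2 antimiR-206 arrays, so that fold rests on values near background. The receptors Igf1r and Igf2r fell by 0.93 and 1.45 and the adaptor Irs2 by 1.28. Among the binding proteins, Igfbp4 and Igfbp7 fell by 2.01 and 0.71, Igfbp2 rose by 2.39 and Igfbp6 by 1.04. Igfbp5, a binding protein of myoblasts, was at 0.29 (SE 0.29, adjusted p = 0.433). Igf1r and Igfbp7 did not pass with median scaling.

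In the TGF-beta and BMP list 10 of 16 genes fell (62.5%, beside 24.9% over all genes), 4 rose and 2 did not pass. The median was −0.72, but with median scaling 2 genes fell and 3 rose. Ccn2, connective tissue growth factor, measured 9.01, 7.95 and 7.88 in antimiR-206 cells, against 11.16, 10.79 and 10.96 in Day2 cells, a change of −2.69 (SE 0.29, adjusted p = 3.85e-06). Fst, follistatin, which binds myostatin and activin, fell by 1.91. The ligands Tgfb2, Bmp4 and Tgfb3 fell by 1.25, 1.16 and 1.13, and those calls were lost with median scaling. Another Bmp4 probe was at 0.23 and did not pass. Notch pathway genes gave 5 falls, 1 rise and 4 not past the test among 10, so 60% were called, beside 51.3% over all genes. Hes6, a differentiation-promoting relative of Hes1, and the ligand Dll1 fell by 1.84 and 1.38, Heyl by 1.04, and Nrarp rose by 0.58. The median of the list was −0.20, and 0.21 with median scaling.

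Extracellular matrix genes were mixed, with 15 lower, 8 higher and 15 not past the test among 38, and a median of −0.43. In all 60.5% were called, 39.5% lower and 21.1% higher, beside 51.3%, 24.9% and 26.5% over all genes. With median scaling 5 were lower and 7 higher. Dcn, decorin, a small leucine-rich proteoglycan, measured 7.47, 6.46 and 6.66 in antimiR-206 cells, against 10.46, 10.64 and 10.71 in Day2 cells, a change of −3.73 (SE 0.32, adjusted p = 4.21e-07). Ogn, a related proteoglycan, measured 11, 9.51 and 9.47 in antimiR-206 cells, against 12.38, 12.16 and 12.52 in Day2 cells, a change of −2.35 (SE 0.75, adjusted p = 0.0175), and its call was lost without antimiR-206 replicate 2 or 3. Mmp13, a collagenase, was at least 3.43-fold lower by its brighter probe and at 0.05 by the other. Col8a1 fell by 1.94 and Tnc, tenascin-C, rose by 1.32.

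Of 17 SWI/SNF subunits, parts of the remodelling complex that MyoD recruits, 8 rose, 2 fell and 7 did not pass. That is 58.8% called, beside 51.3% over all genes, and with median scaling 6 rose and 0 fell. Smarcb1, a core subunit, measured 9.62, 9.73 and 9.71 in antimiR-206 cells, against 8.64, 8.63 and 8.48 in Day2 cells, a change of 1.10 (SE 0.10, adjusted p = 7.07e-07). The BAF60 subunits, variants of 1 position in the complex, are Smarcd1, Smarcd2 and Smarcd3. Smarcd2 rose by 0.94, while Smarcd3, the variant tied to muscle genes, was at 0.21 (SE 0.16, adjusted p = 0.325). Some of the rises were less firm. Arid1a, at 0.55, lost its call in 10 of 17 alternative analyses. Actl6a rose by 0.65, but another of its probes was at −0.23 and did not pass. Smarca2 rose by 0.68 by its brightest probe, and its other probes lay between −0.34 and 0.80.

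The 2 SWI/SNF genes that fell were Brd7 at −0.61 and Phf10 at −0.44, and with median scaling Brd7 did not pass and Phf10 changed to 0.04. Of 9 histone deacetylases 2 rose (Hdac3 at 0.31 and Hdac7 at 0.44). A further 2 fell (Hdac11 at −1.98 and Hdac4, whose probes disagree), and 5 did not pass. Calls made up 44.4% of them, beside 51.3% over all genes. Hdac11 measured 5.34, 5.10 and 5.21 in antimiR-206 cells, against 7.61, 7.11 and 6.87 in Day2 cells. Neither Hdac3 nor Hdac7 passed with median scaling. Hdac5 did not pass by its brightest probe, while another of its probes was higher by 0.76 (adjusted p = 0.00561).

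Detoxification genes under the oxidative stress factor NRF2, and enzymes of glutathione, gave 11 rises, 3 falls and 5 not past the test among 19. The rises were 57.9% of the list, beside 26.5% over all genes, and the median was 0.45. With median scaling 9 rose and 1 fell. Nqo1, a quinone reductase, measured 9.33, 9.74 and 9.76 in antimiR-206 cells, against 6.09, 6.42 and 6.17 in Day2 cells. The change was 3.38 (SE 0.15, adjusted p = 5.08e-10), while another Nqo1 probe did not pass, at 0.43. The glutathione transferases Gsta2 and Gsta1, whose near-identical sequences may share signal, rose by 3.75 and 3.32, and Ftl1, the ferritin light chain, by 1.90, while Gsta3 fell by 2.12. Among 22 p53 and apoptosis genes 12 fell (54.5%, beside 24.9% over all genes), 2 rose and 8 did not pass. With median scaling 2 rose and 6 fell. The largest fall was that of the growth arrest gene Gadd45a. It measured 10.70, 9.84 and 9.81 in antimiR-206 cells, against 13.38, 13.30 and 13.23 in Day2 cells, a change of −3.19 (SE 0.30, adjusted p = 1.26e-06).

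Bbc3, which promotes apoptosis, and Mdm2, which degrades p53, fell by 1.61 and 1.48, and Casp8, an initiator caspase, rose by 1.20. Another Bbc3 probe did not pass, at −0.29, and other Mdm2 probes were at −0.13 (not past the test) and −0.77. Mdm2 did not pass with median scaling. Cholesterol synthesis gave 6 rises, 4 falls and 6 not past the test among 16, so 62.5% were called, beside 51.3% over all genes. With median scaling the list gave 3 rises and 1 fall. Its median was 0.12 and turned below 0 with array weights and without Day2 replicate 1. Dhcr7, which makes cholesterol in its last step, fell by 1.92, and Stard4, which carries cholesterol, and Mvk, mevalonate kinase, rose by 1.76 and 1.55.

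In the pentose phosphate pathway, which makes ribose and NADPH, the transketolase Tkt and Rpia rose by 0.63 and 0.37, Rpe and Taldo1 were at −0.75 and −0.42 with adjusted p of 0.000967 and 0.00114, and Pgls was at 0.22 (adjusted p = 0.127). With median scaling 1 of these 5 passed, and Taldo1 changed to 0.09. Oxidative phosphorylation gave 6 rises, 14 falls and 19 not past the test among 39, a share called of 51.3%, as over all genes. Its median was −0.11, and with median scaling it was 0.46, with 2 rises and 1 fall. Ppargc1a, a coactivator of mitochondrial genes, was at least 2.13-fold lower. Ribosomal protein genes gave 12 rises, no fall and 11 not past the test among 23, with a median of 0.24. Those rises were 52.2% of the list, beside 51.3% called and 26.5% higher over all genes. Across the alternatives 8 to 14 members rose and 0 to 3 fell. Rplp0, Rpl4 and Rps3 rose by 1.02, 0.97 and 0.92 by their brightest probes. Their other probes were at 0.22 (not past the test), 0.37 and 0.41.

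Of 8 osteoblast, 8 adipocyte, 8 endothelial and 8 macrophage markers, 3, 3, 1 and 2 were tested, and the rest had no named probe or were not detected on enough arrays. Of those with a probe, 3 osteoblast, 3 adipocyte, 4 endothelial and 3 macrophage markers were detected on no array, among them the defining markers Sp7, Fabp4, Pecam1 and Ptprc, and 0, 1, 3 and 2 on 1 or 2 arrays. Pparg and Lpl, adipocyte markers, were detected on all 12 arrays, with changes of −0.26 and −0.14 that did not pass. Bglap2 and Bglap, the osteocalcin genes of bone, which are near-identical, fell by 1.34 and 0.53, Vwf was at least 2.21-fold lower, Cd14 rose by 1.37 and Cebpa by 0.95. With median scaling neither Bglap gene passed, and Cebpa lost its call in 8 of 17 alternative analyses. The myoblast markers Myod1, Des, Cdh15 and Vim were above background on all 6 arrays, while Myf5 was not detected on any.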

How the data were processed

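RNA of 12 C2C12 samples was measured on Illumina bead arrays, 3 for each of 4 groups taken from the labels. The deposited scanner table holds raw intensity on a linear scale, with no normalization recorded per the file headers. A column beside it carries a detection p-value heading, yet its deposited score rises with intensity, so the detection p used here is 1 minus that score. The processed values that the authors deposited, which are on a log2 scale, served only as an alternative. lumi is named without a version per the submitters' processing notes, and the steps behind those values are not given in the sources used here. By rank, the scanner columns labelled Day2 replicate 2 and 3 fitted one another's processed column (rho of 1, and 0.882 under their own label), and both remain in the same group.

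Intensities were corrected by limma 3.58.1 (R 4.3.3) with normexp, using detection p to infer controls and adding an offset of 16, and log2 values were taken after quantile normalization. Probes with a detection p under 0.05 on at least 3 of 12 arrays were kept (19809 of 45281). A probe detected only on the 3 arrays of 1 group therefore passed. Raw medians were 49.5 to 63.2, and 36.7% to 40.3% of probes were above background on an array. GEO's platform annotation named 1 gene for 34885 probes, several for 18 and none for 10378, and 34807 gene IDs matched RefSeq. The kept probe with the highest mean stood for its gene, which left 10653 genes. limma fitted 4 group means with trended variances, two-sided, with Benjamini-Hochberg adjustment at 0.05. The variance of a gene is pooled over all 4 groups, and the number of arrays limits the precision. The steps were tested on simulated data. At most a fraction of 0.00775 of raw values was identical between any pair of arrays.

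Members and gene lists were chosen with earlier results of these data known. Named genes were the 15 largest rises and falls that passed, did not overlap and were detected on all 3 arrays of the brighter group, the 5 largest called members of each list, and all tested members of the target, regulator, inhibitor, pentose phosphate, SWI/SNF, histone deacetylase, insulin-like growth factor, Notch and cell type marker lists. Other genes with values were named after those values were seen. Alternatives changed the normalization, background correction, offset, values, filter, probes, samples, weights and replicate block. Promoter windows are the 250 bases before each start in RefSeq's table.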

Additional observations from a re-analysis of the deposited data

How the results depend on the processing

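The number of genes called was 5466 in the main analysis, of which 2818 were higher and 2648 lower. Scaling to a common median gave 2418 calls, 1684 higher and 734 lower, and 2376 of them were among the calls of the main analysis. Testing all 19809 kept probes gave 9371 called probes, 5254 higher and 4117 lower. Leaving out an antimiR-206 or Day2 array gave 4603 to 5149 calls (2377 to 2642 higher, 2226 to 2507 lower). Without mimic replicate 1, which stood apart from its group, the fit gave 6162 calls (3172 higher, 2990 lower). The other alternatives gave 5071 to 6867 calls, the highest with array weights. Of 172 called genes named by rule, 129 kept their call in every alternative that gave them a value. With median scaling 37 lost their call and 3 changed sign: Taldo1 at 0.0856, Hes1 at 0.0718 and Phf10 at 0.0417. The cause was not tested. With the authors' processed values 170 of the 172 kept their call, but the change of 71 differed by more than 1.5-fold, so the size of a fold, bounds included, belongs to the values used.

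The labels number the replicates 1 to 3 in both groups. Deviations from the group means correlated at 0.167, 0.0216 and −0.0257 between same-numbered arrays, so the numbers were not taken to pair the samples. The replicate block gave 5148 calls, 2655 higher and 2493 lower. With the Day2 numbers of the processed table, an alternative added after seeing the data, the same-number correlations were 0.167, 0.145 and 0.206, and the replicate block gave 5187 calls, 2677 higher and 2510 lower.

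Of 111 other kept probes of the called named genes, 105 lay on the same side as the probe reported. Of those, 83 were called and 22 were not. The 22 include probes of Aldh1l2, Brd7, Cars, Ccnd2, Gpd2, Igf1r, Lasp1 and Ncam1. The other 6 lay on the opposite side, and of these the Hdac4 probe passed. Probes of a gene also differed in the size of its change, so a fold or a bound belongs to the probe given. A probe at background limits a change to a bound, which touches 238 called genes in antimiR-206 cells and 154 in Day2 cells. Medium, transfection, inhibitor and an exchange of samples cannot be told apart, and miR-206 itself was not measured.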

Other observations

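Genes outside the levels of both the Day2 and the Day1 cells were counted after the data were seen. limma called 284 genes (2.67%) lower in antimiR-206 cells than in both Day2 and Day1 cells, and 431 (4.05%) higher than in both. These comparisons share the antimiR-206 arrays and use the same threshold. The counts rest on few arrays and on the scaling: 16 genes were lower and 85 higher than both with median scaling, 123 and 139 without antimiR-206 replicate 1, 165 and 266 without antimiR-206 replicate 2, and 145 and 258 without antimiR-206 replicate 3. Without Day1 replicate 2 they were 129 and 174, and without Day1 replicate 3 they were 122 and 150. Of the 36 sarcomere and 20 adhesion and fusion genes, 0 were on either side. Of the 31 tested targets of miR-1 and miR-206, 3 (9.68%) were higher than both and 2 (6.45%) lower than both.

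Of 30 stress genes 12 (40.0%) were below both groups, among them Trib3, Chac1, Ddit3, Asns and Atf4, and of 18 aminoacyl-tRNA synthetases 10 (55.6%) were. With median scaling 8 stress genes and 0 synthetases were below both, and without antimiR-206 replicate 1 the counts were 10 and 7. Trib3 averaged 5.95 in antimiR-206 cells, 9.55 in Day2 cells and 10.07 in Day1 cells. Asns, asparagine synthetase, measured 9.69, 10.63 and 10.53 in antimiR-206 cells, against 11.84, 11.97 and 11.89 in Day2 cells, and 12.36, 12.42 and 12.40 in Day1 cells. Mimic cells were low as well but varied: Trib3 measured 8.35, 5.67 and 6.04 and Chac1 10.58, 8.03 and 7.78. In both genes mimic replicate 1 was the high array.

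Among the genes above both groups, Lgals2 averaged 9.15 in antimiR-206 cells, 5.43 in Day2 cells and 6.87 in Day1 cells. Cxcr4, a chemokine receptor, measured 9.96, 9.67 and 9.82 in antimiR-206 cells, against 7.68, 7.54 and 7.93 in Day2 cells, and 8.30, 7.63 and 7.78 in Day1 cells. Hgf, hepatocyte growth factor, which activates muscle stem cells, averaged 8.62 in antimiR-206 cells, 6.12 in Day2 cells and 7.02 in Day1 cells. Ptn, pleiotrophin, a heparin-binding growth factor, averaged 11.43 in antimiR-206 cells, 9.82 in Day2 cells and 8.87 in Day1 cells. Mimic cells measured 7.39, 9.42 and 9.34 for Lgals2 and 7.8, 9.90 and 9.57 for Cxcr4. They measured 7.35, 8.61 and 8.70 for Hgf and 9.11, 11.68 and 11.76 for Ptn. In each of these genes mimic replicates 2 and 3 lay near the antimiR-206 level and replicate 1 lay lower. These levels are therefore not particular to antimiR-206 cells.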
